A study of Mus musculus with 6 samples.

Results

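This account follows 51 genes of mitosis and chromosome segregation in cultured mouse Th17 cells. The members were listed by symbol, with no measured value in the rule, but they were chosen with earlier results of these data known. All 51 were among the 15452 genes of the deposited table, and all 51 passed the filter on low counts that left 15361 genes to test. They were sorted into 8 roles, from the kinases that start mitosis to the condensins that compact chromosomes.

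Th17 cells are a helper T cell type known for secreting interleukin 17. The cultures were started from naive CD4+ T cells, isolated with magnetic beads from lymphoid organs, and each ran for 3 days with plate-bound anti-CD3 (5 µg/mL), anti-CD28 (1 µg/mL), IL-6 (30 ng/mL), TGFβ (2 ng/mL) and anti-IFNγ (5 µg/mL). Both groups carry the floxed alleles. The 3 WT libraries came from PDHfl/fl mice without Cre. The 3 knockout libraries came from PDHfl/fl CD4 Cre+ mice, in which Cre under the CD4 promoter acts in the T cell lineage. Ages and strains are not given, and the labels do not tie replicates to animals, so p-values speak only of variation among these samples, which may be technical. All knockout libraries carry Cre and no WT library does, so an effect of Cre itself cannot be told apart from that of the deletion. PDH stands for pyruvate dehydrogenase, which makes acetyl-CoA from pyruvate in mitochondria, and the comparison asks how its loss in T cells changes the transcriptome of Th17 cells.

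A dividing cell enters mitosis when cyclin B and CDK1 become active, a switch that CDC25 phosphatases, PLK1 and the Aurora kinases drive. Condensin and topoisomerase II then compact and untangle the chromosomes, kinetochores attach them to spindle microtubules, and the spindle checkpoint holds back the anaphase promoting complex until every chromosome is attached. That complex then marks cyclin B and securin for destruction, which frees separase to part the sister chromatids, and the midzone and contractile ring divide the cell. Most of these genes are transcribed in waves that peak late in the cell cycle. Activated T cells divide rapidly in the first days after stimulation, so their cultures are rich in these transcripts.

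Levels are given as CPM, counts scaled to library size with TMM factors, listed for WT replicates 1, 2 and 3 and then knockout replicates 1, 2 and 3. CPM depends on transcript length, so levels are compared between libraries and not between genes. A change is given on the log2 scale as knockout relative to WT, with its SE (n = 3 per group). A gene was called, and is said to have risen or fallen, when its adjusted p in edgeR's quasi-likelihood test was under 0.05 after Benjamini-Hochberg adjustment over all tested genes. Library totals ran from 33802154 to 40407124 counts, so a count of 0 would allow up to 0.0742 to 0.0888 CPM (3 counts, counting error only), far below the lowest member value, 10.5 CPM for Pttg1 in knockout replicate 2. The labels do not name the floxed subunit, and the sample titles spell the locus PHD where the genotype field has PDH. Pdha1, which encodes the E1 alpha subunit of PDH, was at 256, 236 and 251 CPM in WT and 198, 193 and 186 CPM in knockout (-0.36 ± 0.06, adjusted p = 0.000871), and a gene-level count does not show whether a floxed exon is gone. In knockout replicate 2, 4.95% of counts fell on a single unnamed entry, against 0.0796 to 0.215% in the other libraries. T cell markers (9 of 9 in the table) summed to 2890 to 3148 CPM in WT and 2469 to 2666 CPM in knockout, and Th17 markers (8 of 8) to 1050.3 to 1326 CPM and 753 to 982 CPM. CD8 T cell markers (2 of 2) reached 14.9 CPM, myeloid and dendritic cell markers (7 of 9) 19.4 CPM and NK cell markers (2 of 4) 6.44 CPM, while the 6 erythroid markers, Cd14, Siglech, Ncr1 and Klrb1c had no row.

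Expression of the mitotic genes was lower in knockout than in WT. Of the 51 members 39 fell, none rose and 12 were not called. Over all tested genes 24.5% were called lower and 23.1% higher, so a call in either direction was common (47.6%), whereas 76.5% of the members were called lower. No member was called higher by DESeq2 or limma-voom either, and no member above 0 had an unadjusted p under 0.05. The median log2 fold change of the members was -0.34, against 0.01 over all tested genes. The changes were moderate in size: the members ran from -0.94 for Ccnb2, a decrease of 48.0%, to 0.11 for Mki67, and 47 of 51 lay below 0. In 42 members every knockout value was below every WT value, against 29.4% of all tested genes, and in no member was every knockout value above every WT value, against 28.8%. With upper-quartile scaling, which raised the share of higher genes among all called genes from 48.5% to 60.0%, 33 members fell and none rose. When the test asked for a change beyond 1.2-fold, 19 members were called lower and none higher. Of all 15361 tested genes 1856 were then called lower and 2125 higher, and the share called in either direction was 25.9%.

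Summed over the 51 genes, expression was 10499, 10197 and 10913 CPM in WT and 9510.2, 8284 and 8624 CPM in knockout, 0.836 times the WT mean. The groups did not overlap, and knockout replicate 1 was nearest to WT. This library was the highest of the knockout libraries in 45 of the 51 genes, and knockout replicate 2 was the lowest in 37. The libraries also differed in B cell marker counts: the 11 markers summed to 68.9, 129.5 and 57.3 CPM in WT and 67.3, 150.03 and 226 CPM in knockout (exact two-sided permutation p = 0.3, where the smallest possible is 0.1). In the 3 libraries with low B cell markers (WT replicates 1 and 3, knockout replicate 1) the median log2 fold change of the members was -0.23. In the 3 with raised markers (WT replicate 2, knockout replicates 2 and 3) it was -0.37. Over all genes tested the medians were 0.0043 and 0.0044. Each split leaves 1 library in a group, so only fold changes of the members are given for it. Counts of called genes in the comparison lists are kept to the closing section, and no conclusion is drawn from them. Knockout replicate 1, the only knockout library with low markers, was also the one nearest to WT, so these cannot be told apart. With the log2 sum of B cell markers as a covariate 35 members were called lower, with a median of -0.28. Over all tested genes the share called in either direction was then 40.4%, against 47.6% without the covariate. The part of B cell RNA, and of the T cell and Th17 marker sums that were also lower in every knockout library, was not tested beyond these values. RNA of whole cultures cannot tell a smaller share of cells in mitosis from less of these transcripts in each dividing cell.

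**Figure D1:**
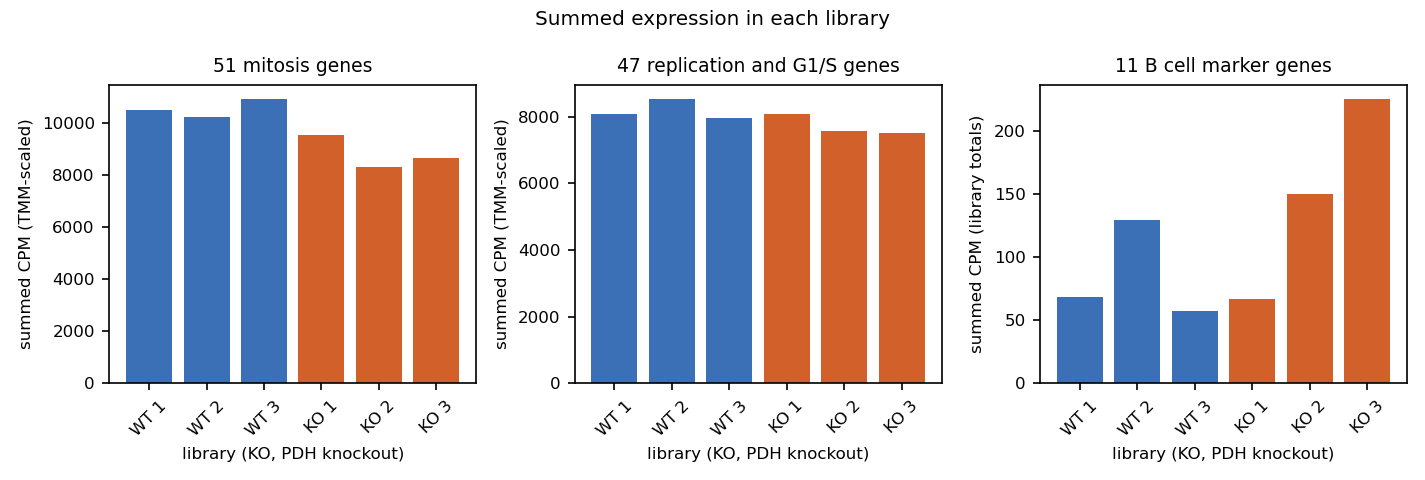
Summed CPM in each of the 6 libraries (WT blue, PDH knockout orange) for the 51 mitosis genes, the 47 DNA replication and G1/S genes and the 11 B cell markers, each on an axis from 0. The mitosis sums were 10197 to 10913 CPM in WT and 8284 to 9510.2 CPM in knockout, without overlap, while WT replicate 2 and knockout replicates 2 and 3 held the most B cell marker counts.

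The plot of every member in every library shows how the genes differed within that overall decrease. The knockout points of Ccnb2, Ube2c, Cenpa and Cdc25b lay furthest to the left of the WT points. Those of Mki67, Smc4, Spc24, Knl1, Ndc80 and Kif4 were interleaved with WT.

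**Figure D2:**
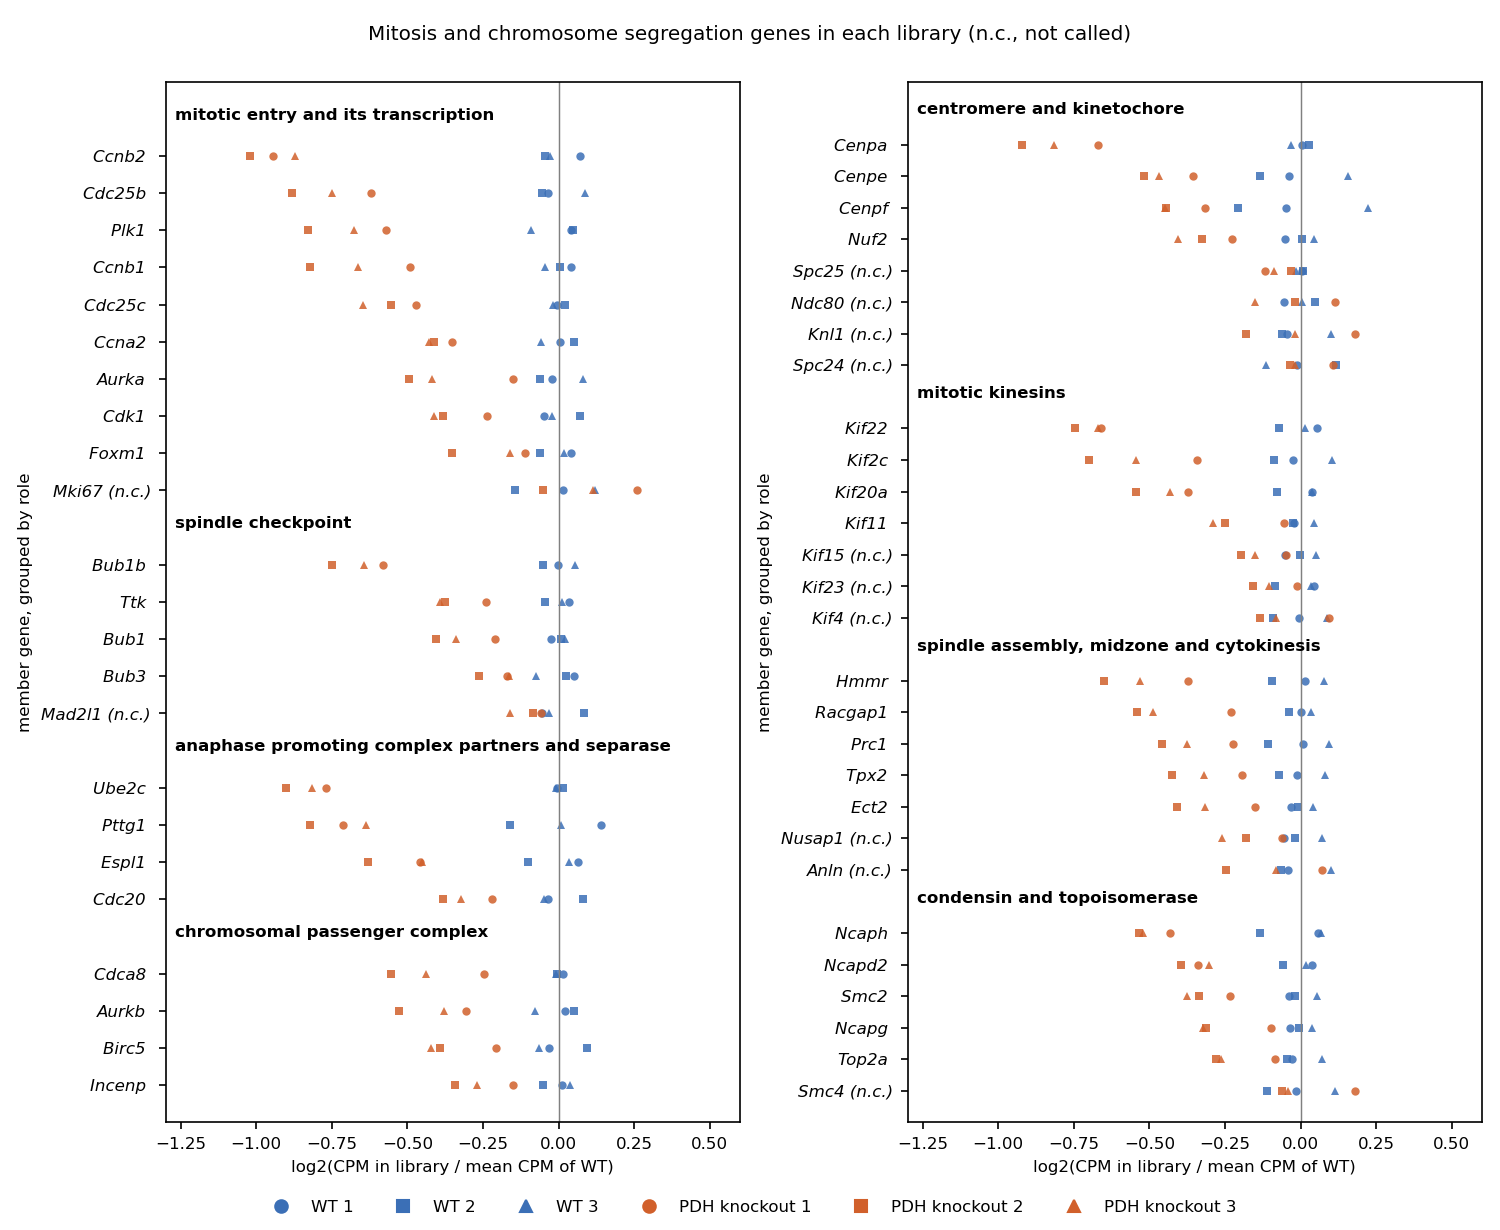
Each of the 51 genes by role, with log2 of its CPM over the WT mean on the horizontal axis (circles, squares and triangles for replicates 1, 2 and 3; WT blue, PDH knockout orange). In 42 genes all 3 knockout points lie to the left of all 3 WT points, and the 12 genes marked n.c. were not called.

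Promoter sequences are shown for the 4 largest decreases, and for Kif4, the member nearest to no change among those not called with a motif in the same stretch. Genes expressed late in the cell cycle often carry a CHR, the cell cycle genes homology region bound by MuvB complexes such as DREAM and MMB-FOXM1, together with CCAAT boxes bound by NF-Y. The stretches cover 120 bases before the annotated start and 30 from it, on RefSeq's GRCm38.p6, 5′ to 3′ on the gene's strand. Capitals mark the CHR (TTTGAA, or TTCAAA on the opposite strand), its variant TTCGAA, and the CCAAT box (CCAAT, or ATTGG on the opposite strand).
Ccnb2, chr9:70421525-70421674, minus strand: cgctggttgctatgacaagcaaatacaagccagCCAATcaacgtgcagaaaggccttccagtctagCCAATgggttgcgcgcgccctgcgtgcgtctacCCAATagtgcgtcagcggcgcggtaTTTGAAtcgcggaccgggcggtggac
Ube2c, chr2:164769809-164769958, plus strand: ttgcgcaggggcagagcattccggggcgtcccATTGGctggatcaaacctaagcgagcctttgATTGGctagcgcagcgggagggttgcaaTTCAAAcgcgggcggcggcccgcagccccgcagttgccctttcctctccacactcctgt
Cenpa, chr5:30666766-30666915, plus strand: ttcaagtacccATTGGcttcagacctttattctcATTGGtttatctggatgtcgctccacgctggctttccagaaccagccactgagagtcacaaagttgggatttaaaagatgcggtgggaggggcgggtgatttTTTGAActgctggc
Cdc25b, chr2:131186828-131186977, plus strand: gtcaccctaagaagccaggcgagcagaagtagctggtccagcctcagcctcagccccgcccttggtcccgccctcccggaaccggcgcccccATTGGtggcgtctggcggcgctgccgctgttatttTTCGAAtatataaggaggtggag
Kif4, chrX:100625945-100626094, plus strand: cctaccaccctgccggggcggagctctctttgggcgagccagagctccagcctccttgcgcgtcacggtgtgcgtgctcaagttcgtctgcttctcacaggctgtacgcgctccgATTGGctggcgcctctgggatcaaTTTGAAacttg
In Ccnb2 the CCAAT boxes begin 87, 54 and 21 bases before the start and a CHR begins 4 bases after it. Ube2c and Cenpa likewise show a pair of CCAAT boxes followed by a CHR, and Cdc25b a CCAAT box followed by the variant. Kif4 holds a CCAAT box and a CHR too, and its expression was not called.

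RefSeq promoter windows of 300 bases (250 before to 50 after the start) were matched for 42 of the 51 members; Foxm1, Ccna2, Cdc25c, Aurkb, Incenp, Spc24, Kif20a, Tpx2 and Smc4 were not matched. TTTGAA on either strand was present in 32 of the 42 (76.2%), against 14.8% of 10482 tested genes with a window and 20.2% of all 27025 genes in the promoter table. CCAAT on either strand was present in 31 (73.8%), against 42.9% of tested genes, and both motifs in 27 (64.3%), against 6.17%. TTCGAA was present in 4 members, Cdc25b, Bub1b, Bub1 and Top2a. Among members called lower, 24 of 32 held TTTGAA and 27 held CCAAT, and among those not called 8 of 10 held TTTGAA and 4 held CCAAT. A match is a run of letters and not a shown binding site, matches to the same or another motif may overlap (2 did in these windows), and no match says only that the letters are not in the window.

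**Figure D3:**
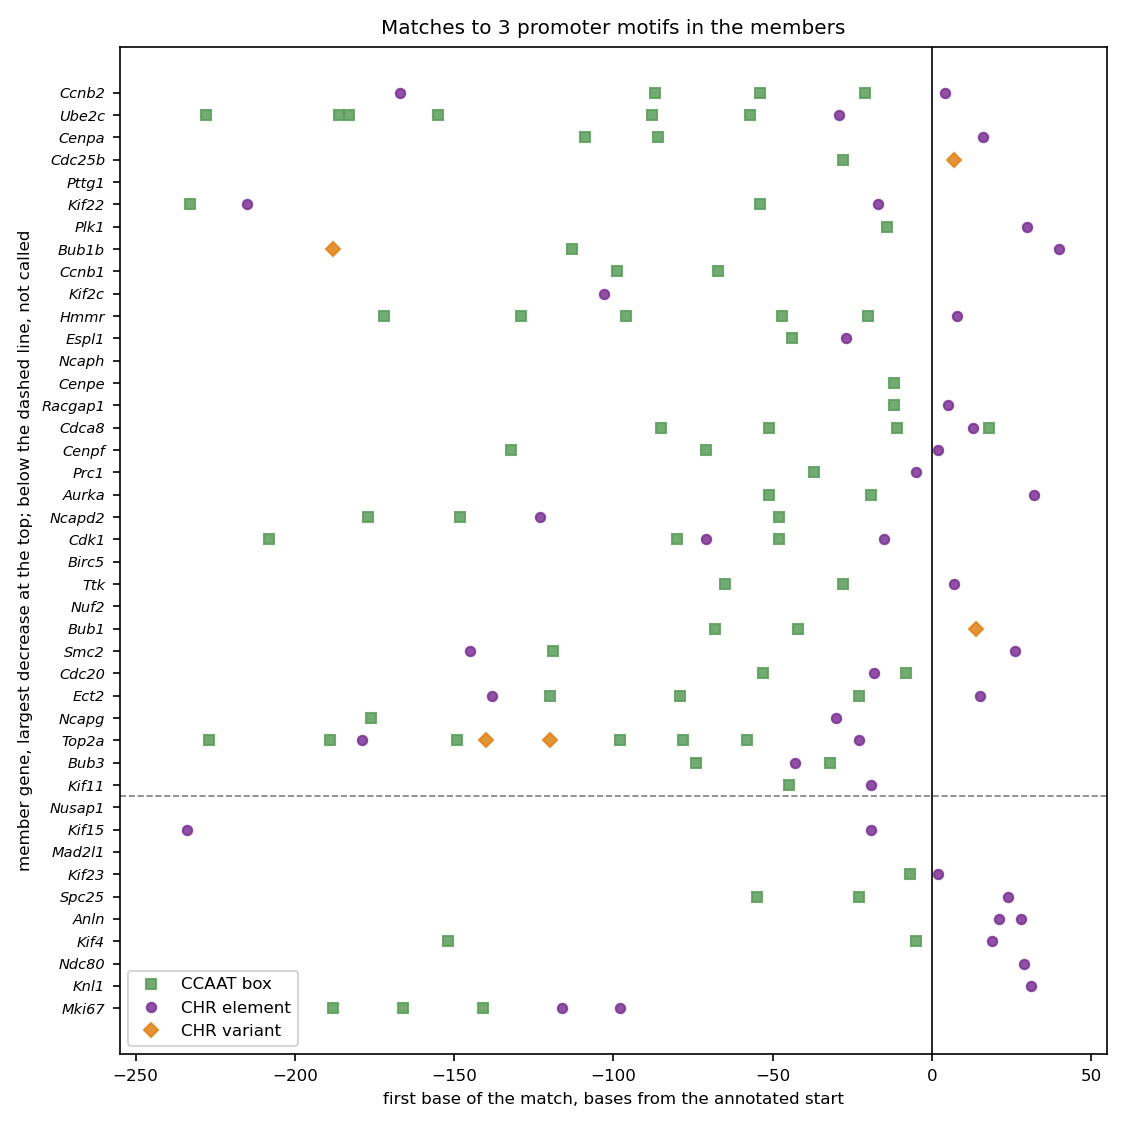
Position of each match to the CCAAT box (squares), the CHR (circles) and its variant (diamonds) in the promoter windows of 42 members, in bases from the annotated start, with the largest decrease at the top and the 10 genes not called below the dashed line. Where a gene has several windows, 1 is drawn. Of the 42 genes, 31 have a CCAAT match and 32 a CHR match.

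Among the 10 genes of mitotic entry, 9 fell and 1 was not called (median -0.48). Ccnb2 (ENSMUSG00000032218.8), a B-type cyclin that activates CDK1, was at 103, 95.3 and 96.4 CPM in WT and 51.02, 48.5 and 53.8 CPM in knockout (-0.94 ± 0.06, adjusted p = 1.61e-05). Cdc25b (ENSMUSG00000027330.17), a phosphatase that removes the inhibitory phosphates from CDKs, was at 116, 115 and 127 CPM in WT and 77.8, 64.8 and 70.98 CPM in knockout (-0.75 ± 0.08, adjusted p = 8.06e-05). Plk1, the Polo-like kinase that promotes entry and spindle assembly, was at 126, 127 and 115 CPM in WT and 82.6, 69.1 and 76.6 CPM in knockout (-0.69 ± 0.08, adjusted p = 0.000118). In all 3 genes the groups were far apart, with knockout replicate 2 the lowest library. Ccnb1, the other main B-type cyclin, was at 215, 209 and 202 CPM in WT and 148, 118 and 132 CPM in knockout (-0.65 ± 0.08, adjusted p = 0.000228), next to -0.94 for Ccnb2, a difference between genes that was not tested. Cdc25c fell by 0.56, the A-type cyclin gene Ccna2 by 0.40, the centrosomal kinase gene Aurka by 0.35 and the kinase gene Cdk1 by 0.34 on the log2 scale. In the 3 libraries with low B cell markers, 1 of them knockout, Aurka, Cdk1 and Foxm1 had log2 fold changes of -0.18, -0.20 and -0.14. Foxm1, the transcription factor of many genes in this list, was at 127, 118 and 125 CPM in WT and 114, 96.8 and 111 CPM in knockout, and its decrease was among the smallest (-0.20 ± 0.07, adjusted p = 0.0393). Its call was lost when WT replicate 1 or 3 or knockout replicate 2 or 3 was left out (adjusted p = 0.0624 to 0.135). Mki67, which encodes the proliferation marker Ki-67, a protein that coats mitotic chromosomes, was at 1072, 961 and 1155 CPM in WT and 1272, 1024 and 1149 CPM in knockout (0.11 ± 0.10, adjusted p = 0.359). Its highest value was in a knockout library and its lowest in a WT library, so the groups overlapped.

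The spindle checkpoint genes split into a clear decrease and several small ones. Of 5 genes 4 fell and 1 was not called (median -0.32). Bub1b, which encodes BUBR1, a subunit of the inhibitor of the anaphase promoting complex, was at 197, 191 and 205 CPM in WT and 132, 118 and 127 CPM in knockout (-0.66 ± 0.06, adjusted p = 5.75e-05). Ttk, the kinase MPS1 that starts the checkpoint signal, was at 42.1, 39.9 and 41.4 CPM in WT and 34.8, 31.7 and 31.3 CPM in knockout (-0.33 ± 0.07, adjusted p = 0.00328). Bub1, a kinetochore kinase of the checkpoint, was at 112, 115 and 116 CPM in WT and 98.7, 86.2 and 90.3 CPM in knockout (-0.32 ± 0.06, adjusted p = 0.00278). Groups were separate in all 3, with Bub1b lowered about as far as the B-type cyclin Ccnb1. Bub3, the partner that brings BUB1 and BUBR1 to kinetochores, was at 175, 172 and 160.4 CPM in WT and 150.2, 141 and 151 CPM in knockout (-0.20 ± 0.06, adjusted p = 0.0211), and was not called without WT replicate 1 or knockout replicate 2 (adjusted p = 0.0987 and 0.0815). Mad2l1, which encodes MAD2, was at 151, 167 and 154 CPM in WT and 151, 148 and 141 CPM in knockout (-0.10 ± 0.06, adjusted p = 0.204). Every knockout value of Mad2l1 lay below every WT value, though the groups nearly touched. In the low B cell marker libraries Ttk, Bub1 and Bub3 had log2 fold changes of -0.26, -0.21 and -0.16.

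All 4 genes around the anaphase promoting complex and separase fell (median -0.62, the lowest of the 8 roles). Ube2c (ENSMUSG00000001403.14), the ubiquitin-conjugating enzyme that works with the complex, was at 173, 175 and 172 CPM in WT and 102, 92.8 and 98.6 CPM in knockout (-0.83 ± 0.06, adjusted p = 1.61e-05). Pttg1, which encodes securin, the inhibitor of separase, was at 20.4, 16.6 and 18.7 CPM in WT and 11.3, 10.5 and 11.9 CPM in knockout (-0.72 ± 0.10, adjusted p = 0.000471). Espl1, which encodes separase, the protease that opens cohesin rings, was at 165, 147 and 161 CPM in WT and 115, 102 and 115 CPM in knockout (-0.51 ± 0.07, adjusted p = 0.000396). The transcripts of inhibitor and protease were thus both lower in every knockout library. Cdc20, the activator of the complex that the checkpoint restrains, was at 126, 137 and 125 CPM in WT and 111, 99.1 and 104 CPM in knockout (-0.31 ± 0.06, adjusted p = 0.00374), the smallest decrease of the 4. Cdc20 stood at -0.18 in the low B cell marker libraries.

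In the chromosomal passenger complex, which corrects faulty attachments, all 4 subunit genes fell, with log2 fold changes from -0.41 to -0.25. Cdca8, which encodes borealin, was at 135, 133 and 133 CPM in WT and 112, 90.97 and 98.6 CPM in knockout (-0.41 ± 0.08, adjusted p = 0.00203). Aurkb, its kinase, was at 127, 129.7 and 119 CPM in WT and 101, 86.8 and 96.2 CPM in knockout (-0.40 ± 0.07, adjusted p = 0.00137), and Birc5, which encodes survivin, was at 150.4, 164 and 147 CPM in WT and 133, 117 and 115 CPM in knockout (-0.34 ± 0.07, adjusted p = 0.00439). Groups were separate in each, and knockout replicate 1 was nearest to WT. Incenp, the scaffold, was at 216, 207 and 221 CPM in WT and 193, 169 and 178 CPM in knockout (-0.25 ± 0.06, adjusted p = 0.00942), and was not called with upper-quartile scaling (adjusted p = 0.0569). In the low B cell marker libraries Birc5 and Incenp stood at -0.16 and -0.17.

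The 8 centromere and kinetochore genes divided evenly, with 4 lower and 4 not called (median -0.20). Cenpa (ENSMUSG00000029177.10), the histone H3 variant that marks centromeres, was at 134, 136 and 131 CPM in WT and 84.2, 70.8 and 76.02 CPM in knockout (-0.80 ± 0.07, adjusted p = 3.82e-05). Cenpe, a kinetochore motor of the kinesin family, was at 233, 219 and 268 CPM in WT and 188, 168 and 173 CPM in knockout (-0.45 ± 0.08, adjusted p = 0.00171). Cenpf, a large outer kinetochore protein, was at 184, 165 and 222 CPM in WT and 153, 139.5 and 139 CPM in knockout (-0.40 ± 0.10, adjusted p = 0.011). WT replicate 3 was the highest library of both Cenpe and Cenpf, and the WT values were spread more widely than those of Cenpa. The NDC80 complex, the main microtubule anchor of the kinetochore, is built from the products of Ndc80, Nuf2, Spc24 and Spc25. Nuf2 was at 93.3, 97.03 and 99.9 CPM in WT and 82.7, 77.3 and 73.1 CPM in knockout (-0.32 ± 0.06, adjusted p = 0.0029). It stood at -0.22 in the low B cell marker libraries. Its partners were not called: Ndc80 was at 85.8, 92.00 and 89.4 CPM in WT and 96.3, 87.9 and 80.2 CPM in knockout (-0.01 ± 0.07, adjusted p = 0.886), and Spc24 at 40.96, 44.9 and 38.2 CPM in WT and 44.6, 40.4 and 40.8 CPM in knockout (0.02 ± 0.08, adjusted p = 0.853). Spc25 was at 55.1, 55.2 and 54.3 CPM in WT and 50.6, 53.7 and 51.6 CPM in knockout (-0.08 ± 0.06, adjusted p = 0.277), with groups that were separate but close. Only Nuf2 of the 4 subunit genes was called, and whether its change differed from that of its partners was not tested. Knl1, the scaffold to which checkpoint proteins bind, was at 116, 115 and 129 CPM in WT and 136, 106 and 118 CPM in knockout (0.00 ± 0.09, adjusted p = 0.997), with both the highest and the lowest value in knockout libraries.

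Of 7 mitotic kinesins 4 fell and 3 were not called (median -0.20). Kif22, the chromokinesin KID that pushes chromosome arms to the equator, was at 117, 107 and 114 CPM in WT and 71.4, 67.3 and 70.95 CPM in knockout (-0.69 ± 0.06, adjusted p = 3.55e-05). Kif2c, the microtubule-depolymerizing kinesin MCAK, was at 97.2, 93.02 and 106 CPM in WT and 77.9, 60.8 and 67.7 CPM in knockout (-0.52 ± 0.09, adjusted p = 0.00151). Kif20a, the midzone kinesin MKLP2, was at 181, 167 and 181 CPM in WT and 136, 121 and 131 CPM in knockout (-0.45 ± 0.06, adjusted p = 0.000486). These decreases were well outside the spread of either group. Kif11, the motor that separates the spindle poles, was at 335, 335 and 351 CPM in WT and 327, 286 and 278 CPM in knockout (-0.20 ± 0.07, adjusted p = 0.0475), close to the threshold: its call was kept only without knockout replicate 1 among the 6 ways of leaving out a library (adjusted p = 0.0601 to 0.156 in the other 5). In the low B cell marker libraries Kif11 stood at -0.07. Kif15 was at 164, 169 and 176 CPM in WT and 164, 148 and 153 CPM in knockout (-0.13 ± 0.06, adjusted p = 0.104) and Kif23, the centralspindlin motor, at 108, 98.9 and 107 CPM in WT and 104, 93.8 and 97.3 CPM in knockout (-0.09 ± 0.06, adjusted p = 0.259). Kif4, a chromokinesin of the midzone, was at 107, 100.5 and 114 CPM in WT and 114, 97.5 and 101 CPM in knockout (-0.04 ± 0.07, adjusted p = 0.712). In all 3 of these the groups overlapped.

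Of 7 genes of spindle assembly, midzone and cytokinesis 5 fell and 2 were not called (median -0.31). Hmmr, a spindle protein that binds hyaluronan, was at 215, 199.7 and 225 CPM in WT and 165, 136 and 148 CPM in knockout (-0.51 ± 0.08, adjusted p = 0.000709). Racgap1, the GTPase-activating subunit of centralspindlin, was at 197, 192 and 202 CPM in WT and 168, 135 and 140.3 CPM in knockout (-0.41 ± 0.08, adjusted p = 0.00259). Prc1, which bundles midzone microtubules, was at 158, 146 and 167 CPM in WT and 134, 114 and 121 CPM in knockout (-0.35 ± 0.08, adjusted p = 0.00464). Knockout replicate 1 was the highest knockout library in each of the 3. Tpx2, the activator of Aurora A on the spindle, fell by 0.31 and Ect2, the exchange factor that switches on RhoA for the contractile ring, by 0.29 on the log2 scale (adjusted p = 0.00658 and 0.00845). In the low B cell marker libraries they stood at -0.23 and -0.15. Nusap1, a microtubule-bundling protein, was at 230.2, 236 and 251 CPM in WT and 229, 211 and 199.7 CPM in knockout (-0.16 ± 0.07, adjusted p = 0.0681), with separate groups, and passed without knockout replicate 1 (adjusted p = 0.0269). Anln, the ring scaffold anillin, was at 49.5, 48.7 and 54.7 CPM in WT and 53.6, 42.98 and 48.1 CPM in knockout (-0.08 ± 0.09, adjusted p = 0.481), with overlapping groups. Racgap1 fell while Kif23, its partner in centralspindlin, was not called; the difference between them was not tested.

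Of the 6 condensin and topoisomerase genes 5 fell and 1 was not called (median -0.28). Ncaph, the kleisin of condensin I, was at 141, 124 and 142 CPM in WT and 101, 93.6 and 94.6 CPM in knockout (-0.50 ± 0.07, adjusted p = 0.000403). Ncapd2, another condensin I subunit, was at 452, 422 and 445 CPM in WT and 347, 334 and 356 CPM in knockout (-0.35 ± 0.06, adjusted p = 0.00123). Smc2, an ATPase core subunit that both condensins share, was at 366, 371 and 390.2 CPM in WT and 319.8, 298 and 289.8 CPM in knockout (-0.31 ± 0.06, adjusted p = 0.0027). Smc4, the other core subunit, was at 637, 596 and 696 CPM in WT and 729, 616 and 625 CPM in knockout (0.03 ± 0.09, adjusted p = 0.794), with the highest of its values in knockout replicate 1. So the kleisin and Smc2 were lower in all knockout libraries and Smc4 was not. Ncapg fell by 0.24 on the log2 scale (adjusted p = 0.0191), and not without knockout replicate 2 or 3 (adjusted p = 0.0691 and 0.0755). Top2a, which encodes topoisomerase II alpha, was at 1296, 1279 and 1386 CPM in WT and 1244, 1088 and 1101 CPM in knockout (-0.21 ± 0.07, adjusted p = 0.0441), and lost its call without WT replicate 1 or 3 or knockout replicate 2 or 3 (adjusted p = 0.0952 to 0.146). In the low B cell marker libraries Smc2, Ncapg and Top2a stood at -0.24, -0.10 and -0.11.

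Genes of the same processes outside the 51 were read from lists of named genes, with changes again on the log2 scale. The 116 further mitosis genes, in 7 lists, held 46 that fell, 13 that rose and 57 not called, with a median of -0.15. That is 39.7% lower and 11.2% higher, against 24.5% and 23.1% of all tested genes. In mitotic entry and exit control 7 of 12 fell and 1 rose: Cdc14b and Cdc14a, relatives of a yeast phosphatase of mitotic exit, fell by 0.92 and 0.68, and Ccnf, an F-box cyclin, by 0.36, while Pkmyt1, the kinase that holds CDK1 inactive, rose from 68.4 ± 1.94 to 86.3 ± 5.87 CPM (0.34 ± 0.07, adjusted p = 0.00241). In spindle, centrosome and cytokinesis genes 18 of 41 fell and 4 rose. Tacc3, a spindle microtubule protein, fell from 183 ± 5.43 to 117 ± 6.73 CPM (-0.65 ± 0.06, adjusted p = 5.47e-05), and Dlgap5, a spindle assembly factor, and the kinase gene Pbk by 0.55 and 0.40. Gtse1, a microtubule-associated protein that binds p53, rose from 97.6 ± 2.82 to 162 ± 10.7 CPM (0.73 ± 0.06, adjusted p = 3.96e-05). Psrc1, which encodes a microtubule-binding protein and was named after its values were seen, had the largest change of the 116 genes, from 74.7 ± 13.5 to 181 ± 23.97 CPM (1.28 ± 0.15, adjusted p = 0.000597). The count of genes that rose in this list was 2 without WT replicate 1 or without knockout replicate 1 or 2.

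Lists for structural parts of kinetochore, cohesin and ubiquitin ligase held calls in both directions. Of 13 further outer kinetochore genes 4 fell and 2 rose, with a median of 0.07, and with upper-quartile scaling 1 fell and 4 rose. These shares, 30.8% lower and 15.4% higher, were near those of all tested genes (24.5% and 23.1%). Zw10, Kntc1 and Zwint fell by 0.30, 0.24 and 0.21, and Pmf1, a subunit of the MIS12 complex, rose by 0.21. Pmf1 was not called without WT replicate 1 or knockout replicate 1 or 3 (adjusted p = 0.0757, 0.0804 and 0.0594), nor Zwint without knockout replicate 3 (adjusted p = 0.057). Without knockout replicate 3 the list held 2 lower and 1 higher, and without WT replicate 1 or knockout replicate 1 none higher. Of 17 inner centromere genes 7 fell and 1 rose (41.2% and 5.88%), with Cenpi, Mis18a and Cenpq lower by 0.59, 0.36 and 0.29. That single increase was absent without WT replicate 1 or 3 or knockout replicate 1 or 3. Of 3 condensin II genes Ncaph2 and Ncapd3 fell, by 0.43 and 0.35. In cohesin and its regulators 2 of 15 fell and 4 rose, 13.3% and 26.7%, against 24.5% and 23.1% of all tested genes. Sgo2a, a shugoshin that protects cohesin at centromeres, fell from 85.4 ± 10.4 to 56.8 ± 5.37 CPM (-0.59 ± 0.10, adjusted p = 0.00121), while Nipbl, the cohesin loader, rose from 182 ± 16.4 to 234 ± 4.41 CPM (0.36 ± 0.07, adjusted p = 0.00237), and Stag1, a cohesin subunit, and Mau2, the partner of the loader, rose by 0.28 and 0.21. Stag1 was not called without WT replicate 1 (adjusted p = 0.0541), nor Mau2 without WT replicate 3 or knockout replicate 3 (adjusted p = 0.0691 and 0.102). The count of cohesin genes lower was 4 without knockout replicate 1 and 1 without any other single library, and the count higher was 2 without WT replicate 1 or knockout replicate 3. In the core of the anaphase promoting complex 6 of 15 fell and 1 rose (40.0% and 6.67%): Cdc16, Cdc26 and Anapc2 fell by 0.53, 0.48 and 0.35, and Anapc5 rose from 349 ± 19.5 to 495 ± 46.6 CPM (0.50 ± 0.08, adjusted p = 0.000797). The count higher there was 3 without WT replicate 2.

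**Figure D4:**
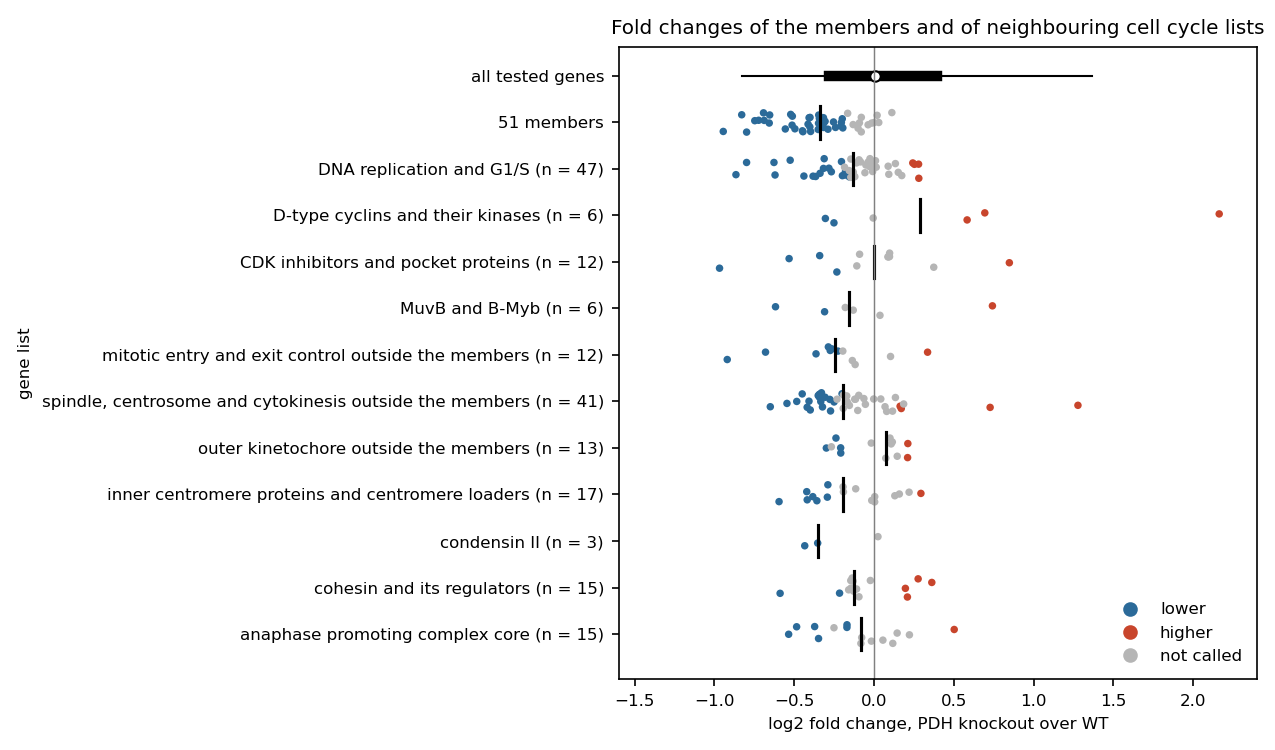
Log2 fold change of knockout over WT for each tested gene of the 51 members and of 11 cell cycle lists, coloured by call, with the list median as a black bar; for all tested genes the thick bar runs from the 25th to the 75th percentile, the line from the 5th to the 95th, and the open circle is the median. The member median is -0.34 and that of DNA replication and G1/S is -0.13.

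DNA replication and G1/S genes, which act earlier in the cycle, held 18 of 47 that fell, 4 that rose and 25 not called, with a median of -0.13. These are 38.3% lower and 8.51% higher, against 24.5% and 23.1% of all tested genes. Rfc4, a clamp loader subunit, fell from 58.2 ± 3.76 to 31.97 ± 0.344 CPM (-0.86 ± 0.07, adjusted p = 2.43e-05), Tk1, thymidine kinase, from 107 ± 5.02 to 61.5 ± 4.22 CPM (-0.80 ± 0.07, adjusted p = 3.55e-05), and Ccne1, the cyclin of S phase entry, and Chaf1b, a histone chaperone subunit, by 0.62 and 0.63. The count of higher genes was 1 without WT replicate 1 or knockout replicate 1, and 2 without knockout replicate 3. Summed over the list, expression was 8096, 8539 and 7967 CPM in WT and 8070.4, 7572 and 7524 CPM in knockout. These sums overlapped, where those of the mitosis genes did not, but sums weigh abundant genes most. The median over the list of the log2 deviation from each gene's average did separate the groups. It was 0.0455, 0.128 and 0.0393 in WT and -0.0201, -0.0712 and -0.103 in knockout. Its group means were 0.0709 and -0.0647, against 0.157 and -0.168 for the mitosis genes, a smaller shift in the same direction. The ratio of mitosis to replication sums was 1.30, 1.19 and 1.37 in WT and 1.18, 1.09 and 1.15 in knockout. Each knockout ratio was below each WT ratio, though knockout replicate 1 and WT replicate 2 nearly met.

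The lists of upstream regulators are short, so their shares are set by few genes. Of 6 D-type cyclins and their kinases 3 rose and 2 fell (over all tested genes 23.1% rose and 24.5% fell). Ccnd2, a D-type cyclin gene, rose from 897 ± 6.71 to 1345 ± 93.02 CPM (0.58 ± 0.07, adjusted p = 0.000183) and its partner kinase gene Cdk6 from 156 ± 8.61 to 252 ± 9.18 CPM (0.69 ± 0.06, adjusted p = 4.04e-05), while Cdk2 fell by 0.30. Ccnd1 was called higher from 3, 5 and 4 counts in WT and 11, 22 and 19 in knockout. The count lower was 1 without WT replicate 1 or knockout replicate 2. Of 12 tested CDK inhibitors and pocket proteins 4 fell and 1 rose (33.3% and 8.33%). Cdkn2d and Cdkn2c, inhibitors of CDK4 and CDK6, fell by 0.97 and 0.53, and the repressor E2F gene E2f4 by 0.34. Cdkn1a, which encodes the CDK inhibitor p21, was at 162, 177 and 196 CPM in WT and 259, 376 and 330.0 CPM in knockout (0.85 ± 0.14, adjusted p = 0.00224). Every knockout value of Cdkn1a was above every WT value. The count higher was 2 without WT replicate 3. Of 6 tested MuvB and Myb genes 2 fell and 1 rose (33.3% and 16.7%): Lin37 and Lin52, which encode MuvB subunits, fell by 0.62 and 0.31, and Mybl1, which encodes A-Myb, rose from 20.96 ± 2.37 to 35.1 ± 2.80 CPM (0.74 ± 0.10, adjusted p = 0.000316). Lin52 was not called without WT replicate 1 or knockout replicate 2 or 3 (adjusted p = 0.0787, 0.0524 and 0.0762).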

How the data were processed

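Messenger RNA of 6 Th17 cultures, 3 WT and 3 PDH knockout, was read from the single deposited table of expected counts, estimated reads per gene in whole numbers with a different total per library. Salmon, DESeq2 and DESeq appear in the submitters' processing notes, with no version and no role, and for genome build and annotation the entry is: not given in the sources used here. Each of the 15452 rows held at least 10 counts in at least 3 libraries. Gene IDs were matched without version to GENCODE M21 (15138 matched, 314 not), and 18 carried its version. Replicates differed by more than sampling noise (chi-square per degree of freedom at least 25.2).

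Counts were fitted in edgeR 4.0.16 under R 4.3.3 (filterByExpr, which removed 91 genes; TMM; robust quasi-likelihood F test with genotype alone; Benjamini-Hochberg over 15361 genes). CPM are TMM-scaled, except marker sums, which use library totals. The test was tried on simulated counts with few changed genes and the same spread set for all. That trial does not measure its performance in these data. The members, the lists and the alternatives were chosen with earlier results of these data known. All members are described, with per-library values for the 3 largest called changes of each role, for members not called and for some others, and up to 4 called genes of smallest p for each comparison list, of which 1 is not reported here. Alternatives were RLE, upper-quartile and no scaling factors, DESeq2 1.42.0, limma-voom (limma 3.58.1), other filters, no robust estimation, a block for the replicate number, a test against 1.2-fold, leaving out each library in turn, and 27 entries raised in knockout replicate 2 removed; those on B cell markers were chosen after the data were seen. Figures used matplotlib 3.10.9.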

Additional observations from a re-analysis of the deposited data

How the results depend on the processing

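No member changed direction and passed the threshold in the other direction under any alternative, and none was called higher. The count of 39 members called lower was 33 with upper-quartile factors, 34 with library totals, 36 with at least 50 counts in 3 libraries, 37 without robust estimation and 39 with RLE, DESeq2, limma-voom, no filter or without the entries raised in knockout replicate 2. Leaving out 1 library gave 34 to 40, and the median log2 fold change then ran from -0.39 to -0.31. The count was 19 against 1.2-fold. With the 3 low B cell marker libraries, 1 of them knockout, the member median was -0.23, and no count is given. Fold changes of single genes in these libraries are printed above only for some members. Each of those members had a smaller decrease there than in all 6 libraries, so they do not stand for the whole list. Apart from the test against 1.2-fold, the alternatives other than those on B cell markers changed the call of 7 members (Foxm1, Bub3, Incenp, Kif11, Nusap1, Ncapg and Top2a), all with a log2 fold change between -0.25 and -0.16.

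Labels do not say what the replicate numbers share, and same-numbered libraries did not deviate together (correlations -0.10, 0.09 and -0.26), so the numbers were not taken as pairs. With the replicate block 37 members were called lower, without Kif11 and Top2a (adjusted p = 0.0565 and 0.0631).

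Tested against 1.2-fold, 3981 genes passed, 1856 lower and 2125 higher. Lower and higher genes were then 2 and 1 in the anaphase promoting complex core, 1 and 0 in cohesin, 1 and 0 in inner centromere, 0 and 0 in outer kinetochore, 3 and 0 in mitotic entry and exit, 6 and 2 in spindle and cytokinesis and 6 and 0 in replication, with 1 lower in condensin II, 1 in MuvB, 2 among CDK inhibitors and 0 among D-type cyclins. With upper-quartile factors the counts that moved were 3 higher in the anaphase promoting complex core, 1 lower in cohesin, 2 higher in inner centromere, 1 lower and 4 higher in outer kinetochore, 2 higher in mitotic entry and exit, 7 higher in replication, and 1 lower in MuvB and among D-type cyclins. With library totals they were 2 higher in the anaphase promoting complex core and 1 lower in cohesin, MuvB and D-type cyclins. With at least 50 counts they were 2 higher in the anaphase promoting complex core and in mitotic entry and exit, and 1 lower in cohesin. DESeq2 called 5 cohesin genes lower.

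Each split by B cell markers leaves 1 library in a group, which is assumed to vary like the other group. The spread of that group cannot be measured. The counts for the splits are therefore listed only to show which of them moved, and no conclusion is drawn from them. With the low B cell marker libraries alone the counts that moved were 3 higher in the anaphase promoting complex core, 1 lower and 2 higher in cohesin, 2 lower in inner centromere, 2 lower in outer kinetochore, 3 lower in mitotic entry and exit, 1 lower in MuvB, 11 lower in spindle and cytokinesis, 8 lower in replication, 2 higher among CDK inhibitors and 1 lower among D-type cyclins. With the raised ones alone they were 1 higher in cohesin, 0 higher in inner and in outer kinetochore lists, 2 higher in spindle and cytokinesis, 1 higher in replication and 2 higher among CDK inhibitors. With the B cell covariate 1 gene was lower in cohesin and in MuvB.

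Leaving out each library in turn gave 5524 to 6961 genes called, 2920 to 3643 of them lower and 2604 to 3333 higher. The ranges of lower and higher counts were 4 to 6 and 1 to 3 in the anaphase promoting complex core, 1 to 4 and 2 to 4 in cohesin, 6 to 9 and 0 to 1 in inner centromere, 2 to 5 and 0 to 2 in outer kinetochore, 5 to 7 and 1 to 1 in mitotic entry and exit, 1 to 3 and 1 to 1 in MuvB, 16 to 23 and 2 to 3 in spindle and cytokinesis, 14 to 20 and 1 to 6 in replication, 3 to 4 and 1 to 2 among CDK inhibitors, and 1 to 2 and 3 to 3 among D-type cyclins. The knockout minus WT difference of summed CD8 T cell markers ran from -3.045 to 1.60 CPM and that of myeloid markers from -6.06 to 0.0781 CPM, so neither kept its sign.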
